A study of Mus musculus with 2 samples.

Results

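The genes described here are 9 genes of serotonergic neurons, Tph2, Fev, Slc6a4, Slc18a2, Ddc, Maoa, Maob, Gata2 and Gata3, chosen by name out of 43346 genes measured in the mouse embryonic hindbrain. All 9 were found by their identifiers. Total RNA was sequenced from 2 hindbrains of B6NCrl mouse embryos at 14.5 days of gestation, 1 library per hindbrain, and both libraries belong to 1 group with no treatment and no altered gene named in the labels. Per the labels, each hindbrain came from 1 pup, the pups were taken on different dates, and both samples carry 1 donor identifier and a pooled sex. The comparison between libraries therefore asks how far replicate 2 differed from replicate 1, and a difference between the dates cannot be told apart from one between the pups.

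The genes of the libraries held 32450699 expected counts in replicate 2 and 33727977 in replicate 1, where an expected count is the authors' estimate of the reads from a gene. Of 8 genes of the hindbrain, 6 reached 1 TPM in both libraries, led by Hoxa5, Meis1 and Hoxb5, against 1 of 7 forebrain genes, Lhx2. TPM is a share of all transcripts corrected for transcript length, so levels of different genes can be compared. In whole tissue, fewer cells of a type and less RNA per cell cannot be told apart.

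Serotonin neurons of the brain arise in the raphe region along the midline of the hindbrain and are among its early-born neurons. They make serotonin from tryptophan by hydroxylation and decarboxylation, load it into vesicles, take it back up after release and break it down by oxidation. Postmitotic precursors of these neurons switch on the transcription factors Gata2, Gata3 and Fev, also called Pet1, and Fev is needed in mice for the expression of Tph2 and Slc6a4 in most of them. Gata2, Gata3, Slc18a2, Ddc and the monoamine oxidase genes are also expressed in other cell types.

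All 9 genes reached 1 TPM in both libraries, a level that 34.8% of all measured genes reached, and their mean levels ran from 3.76 TPM for Maob to 22.7 TPM for Gata3. Of all genes that averaged 1 TPM or more, 59.2% lay below Gata3 and 20.7% below Maob. In order of mean level they were Gata3, Maoa, Slc18a2, Gata2, Slc6a4, Tph2, Ddc, Fev and Maob. The values of Slc6a4, Tph2 and Ddc in the libraries overlapped, as did those of Fev and Maob, so the order within these groups is not larger than the spread between replicates. The other neighbours in the order had values that did not overlap.

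**Figure D1:**
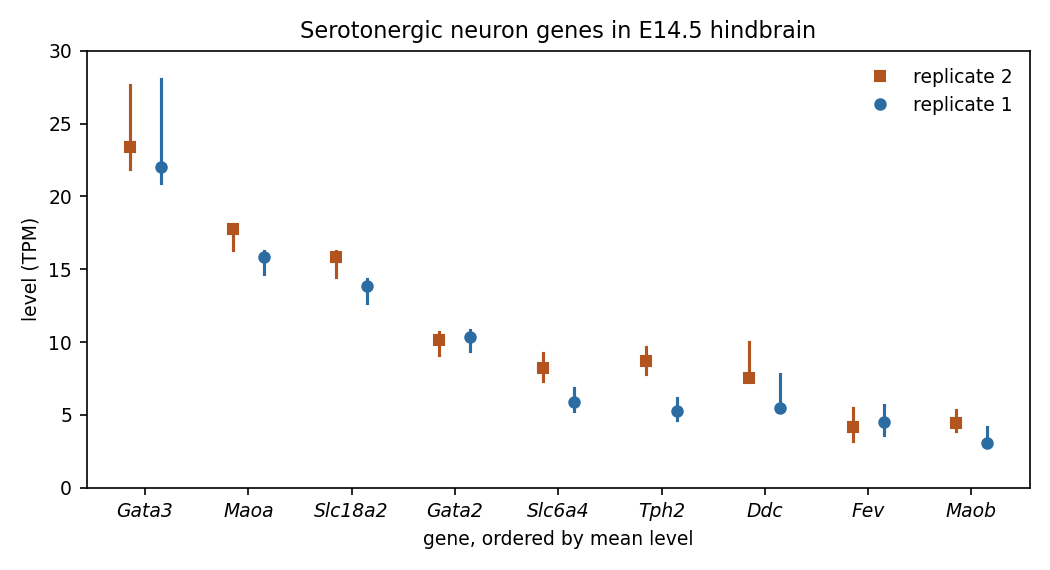
Level of each gene in TPM, with genes on the horizontal axis ordered by mean level, replicate 2 as squares and replicate 1 as circles, and the deposited credibility interval as a vertical line. Gata3 stands highest, at 23.4 TPM in replicate 2 and 22.1 TPM in replicate 1. All genes but Gata2 and Fev have higher values in replicate 2 than in replicate 1. The intervals of the libraries are apart for Tph2, Slc6a4, Slc18a2 and Maoa and overlap for the other genes.

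The synthesis genes stood in the lower range of the 9. Tph2 (ENSMUSG00000006764.8), on chromosome 10 from 115078641 to 115185022 of GRCm38 (mm10), encodes the neuronal tryptophan hydroxylase, the rate-limiting enzyme of serotonin synthesis. It had 8.71 TPM in replicate 2 and 5.28 TPM in replicate 1, a mean of 7.00 ± 2.43 TPM (SD, n = 2), from 430 expected counts in replicate 2 and 285 in replicate 1. Its deposited credibility intervals did not overlap, at 7.82 to 9.69 TPM in replicate 2 and 4.66 to 6.16 TPM in replicate 1. Ddc (ENSMUSG00000020182.12), on chromosome 11 from 11814101 to 11898144, encodes the aromatic amino acid decarboxylase that completes the synthesis of serotonin and also that of dopamine. Ddc had 7.53 TPM in replicate 2 and 5.51 TPM in replicate 1, a mean of 6.52 ± 1.43 TPM (SD, n = 2). Its level was close to that of Tph2 in each library, with a ratio of Tph2 to Ddc of 1.16 in replicate 2 and 0.958 in replicate 1. Tph1, the tryptophan hydroxylase of the gut and pineal gland, had 13 expected counts in replicate 2 and 5 in replicate 1 and stayed below 1 TPM in both.

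The vesicular transporter gene was higher than the plasma membrane transporter gene. Slc6a4 (ENSMUSG00000020838.8), on chromosome 11 from 76998603 to 77032340, encodes the serotonin transporter that returns serotonin to the neuron. It had 8.22 TPM in replicate 2 and 5.88 TPM in replicate 1, a mean of 7.05 ± 1.65 TPM (SD, n = 2). Slc18a2 (ENSMUSG00000025094.7), on chromosome 19 from 59260896 to 59296012, encodes the vesicular monoamine transporter, which fills vesicles in all monoamine neurons. It had 15.8 TPM in replicate 2 and 13.9 TPM in replicate 1, a mean of 14.8 ± 1.40 TPM (SD, n = 2). The level of Slc18a2 was 1.93 times that of Slc6a4 in replicate 2 and 2.36 times in replicate 1. Slc18a1, the vesicular transporter of endocrine cells, stayed below 1 TPM, at 0.27 TPM in replicate 2 and 0.59 TPM in replicate 1.

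Among the breakdown genes, Maoa exceeded Maob. Both encode monoamine oxidases of the outer mitochondrial membrane and lie side by side on the X chromosome, Maoa (ENSMUSG00000025037.6) from 16619698 to 16687818 on the plus strand and Maob (ENSMUSG00000040147.10) from 16709282 to 16817366 on the minus strand. Maoa had 17.7 TPM in replicate 2 and 15.9 TPM in replicate 1, a mean of 16.8 ± 1.32 TPM (SD, n = 2). Maob had 4.43 TPM in replicate 2 and 3.08 TPM in replicate 1, a mean of 3.76 ± 0.955 TPM (SD, n = 2). Maoa exceeded Maob 4.0 times in replicate 2 and 5.15 times in replicate 1, and the values of the pair did not overlap. Neither main transcript shared a stretch of 100 bases with the other, so reads of that length that match without error tell the pair apart. Of the 4068 such stretches in Maoa, 15 also occur in the predicted gene Gm26691. The labels give a pooled sex for each sample. The noncoding RNA Xist of the inactive X chromosome had 2.6 expected counts in replicate 2 and 2.25 in replicate 1, while the Y-linked genes Ddx3y, Eif2s3y and Kdm5d each exceeded 17 TPM in both libraries, with Ddx3y at 25.1 TPM in replicate 2 and 23.3 TPM in replicate 1.

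The transcription factor genes spanned the widest range. Gata3 (ENSMUSG00000015619.10), a zinc finger factor on chromosome 2 from 9857078 to 9890034, had 23.4 TPM in replicate 2 and 22.1 TPM in replicate 1, a mean of 22.7 ± 0.969 TPM (SD, n = 2). Gata2 (ENSMUSG00000015053.10), its relative on chromosome 6 from 88193891 to 88207032, had 10.2 TPM in replicate 2 and 10.4 TPM in replicate 1, a mean of 10.3 ± 0.141 TPM (SD, n = 2). Gata3 exceeded Gata2 2.30 times in replicate 2 and 2.13 times in replicate 1. Fev (ENSMUSG00000055197.4), an ETS domain factor on chromosome 1 from 74881509 to 74885419, had 4.17 TPM in replicate 2 and 4.55 TPM in replicate 1, a mean of 4.36 ± 0.269 TPM (SD, n = 2). With 89 expected counts in replicate 2 and 113 in replicate 1, Fev rested on the fewest reads of the 9 genes. The level of Tph2 was 2.09 times that of Fev in replicate 2 and 1.16 times in replicate 1, a ratio that differed between the libraries and was not tested.

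GATA factors also act in blood, in endothelium and in V2b interneurons, ventral interneurons of the hindbrain and spinal cord. Gata1, the erythroid member of the family, had 0 expected counts in replicate 2 and 1 in replicate 1, and the mast cell genes Cpa3, Ms4a2 and Mcpt4 had at most 4 counts in replicate 2 and 8 in replicate 1, with Mcpt4 at 0 in both. Of 8 erythroid and mast cell genes, 2 reached 1 TPM in both libraries, and the list summed to 87.5 TPM in replicate 2 and 67.2 TPM in replicate 1. These sums came mainly from Kit and the heme synthesis gene Alas2. Kit had 47.3 TPM in replicate 2 and 40.5 TPM in replicate 1, and Alas2 38.5 TPM in replicate 2 and 24.2 in replicate 1. Gata1, Klf1, Cpa3, Ms4a2 and Mcpt4 of the same list stayed below 1 TPM in both libraries. In which cells Kit was expressed was not tested. All 8 endothelial and pericyte genes reached 1 TPM, with a sum of 186.3 TPM in replicate 2 and 187.4 TPM in replicate 1, led by Cldn5, Rgs5 and Pdgfrb. Of 7 V2 interneuron genes, 5 did, with sums of 25.0 TPM in replicate 2 and 22.3 TPM in replicate 1. They included Sox14, at 8.1 TPM in replicate 2 and 7.9 TPM in replicate 1, Lhx3, at 4.44 TPM in replicate 2 and 4.58 TPM in replicate 1, and Tal1, a partner of GATA factors in blood and V2b cells, at 5.95 TPM in replicate 2 and 4.32 in replicate 1. The part of these cell types in the levels of Gata2 and Gata3 was not tested.

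By transcript, 1 form held nearly all of the TPM of most genes. Slc18a2 and Maoa had a single annotated transcript each. The full-length coding transcript of Tph2 took 100% of the gene's TPM in both libraries. The main transcript of Maob took 97.7% in replicate 2 and 100% in replicate 1, and that of Slc6a4 took 93.2% in replicate 2 and 96.8% in replicate 1. By the authors' posterior mean estimate the shares were lower. They were 88.2% in replicate 2 and 80.2% in replicate 1 for Maob, and 81.1% in replicate 2 and 83.0% in replicate 1 for Slc6a4. The full-length coding form of Fev held 68.8% in replicate 2 and 78.0% in replicate 1, and a form with a retained intron held 26.6% in replicate 2 and 22.0% in replicate 1. The retained-intron form is a model of 458 bases, and by expected counts its share was 8.73% in replicate 2 and 6.82% in replicate 1. The main coding form of Gata3 held 83.6% in replicate 2 and 84.3% in replicate 1 by TPM but 98.5% in each by expected counts, with the rest mainly in a noncoding model of 344 bases. A low count on a short model thus took a large share of TPM in both genes.

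**Figure D2:**
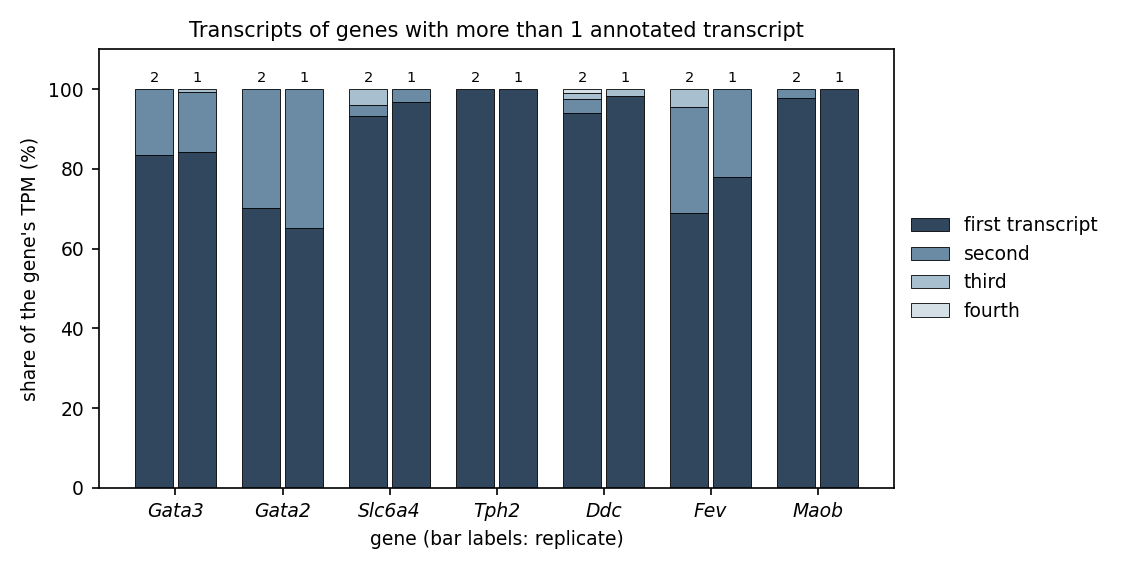
Share of each gene's TPM held by its annotated transcripts, in percent, for the 7 genes with more than 1 annotated transcript; the left bar of each pair is replicate 2 and the right bar replicate 1. The first transcript holds at least 93.2% in Slc6a4, Tph2, Ddc and Maob, while Gata2 is split between 2 forms, with 70.3% in replicate 2 and 65.2% in replicate 1 for the first.

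Ddc and Gata2 have alternative start sites; the reads of Ddc were assigned to the downstream one and those of Gata2 to both. The farthest upstream start of Ddc lies 7736 bases before the downstream one, and in rodents the downstream start is the one known from neurons, the upstream one from liver and kidney. The main form from the downstream start was assigned 257 of 263 expected counts in replicate 2 and 215 of 216 in replicate 1, or 94.0% of TPM in replicate 2 and 98.2% in replicate 1. Both coding forms from the upstream region were assigned 0 counts in both libraries. Few reads can separate these forms, since 39 of the 1823 stretches of 100 bases in one of them and 135 of 1919 in the other are absent from the downstream form. By the authors' posterior mean estimate, these forms held 17.0% of the gene in replicate 2 and 18.0% in replicate 1, and the main downstream form held 57.6% in replicate 2 and 55.3% in replicate 1. Gata2 was read from both of its starts. The form from the downstream start held 70.3% in replicate 2 and 65.2% in replicate 1, and the form from the start 4443 bases upstream held 29.7% in replicate 2 and 34.8% in replicate 1. The downstream form is 330 bases longer in the annotation used for coordinates than in the files, so the distance between starts in the authors' models may differ by that length.

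The promoters of the genes, 250 bases upstream of each start as RefSeq gives it on GRCm38.p6, were searched on both strands for GATA motifs, spelled AGATAA or AGATAG or TGATAA or TGATAG, and for CCGGAA, an ETS motif. Starts were matched for 8 of the 9 genes, with 2 each for Ddc and Gata2, 10 in all; the 250 bases before the downstream start of Gata2 lie within an exon in GENCODE M21. A GATA match was found before 5 of the 10 starts, those of Tph2, Fev, Slc6a4, Slc18a2 and Maoa, whereas 26.5% of 32851 promoters of all genes held one. A CCGGAA match was found before 1 of the 10, that of Gata3, against 12.0% of all promoters. A match is only a run of letters, and binding was not measured. The windows of Tph2 and Fev are shown because these genes have the narrowest known expression in serotonin neurons, that of Slc18a2 because it holds 2 matches, and that of Slc6a4 for its match on the strand opposite the gene. Capitals mark the GATA matches as they read on the strand of the gene, so that a match on the opposite strand appears as its reverse complement, which is the case in Slc6a4 and in the upstream match of Slc18a2.
Tph2, chr10:115185023-115185272, minus strand: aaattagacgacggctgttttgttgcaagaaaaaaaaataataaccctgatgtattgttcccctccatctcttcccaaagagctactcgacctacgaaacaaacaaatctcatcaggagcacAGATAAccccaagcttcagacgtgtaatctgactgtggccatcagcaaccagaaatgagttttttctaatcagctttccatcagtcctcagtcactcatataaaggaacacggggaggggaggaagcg
Fev, chr1:74885420-74885658, minus strand: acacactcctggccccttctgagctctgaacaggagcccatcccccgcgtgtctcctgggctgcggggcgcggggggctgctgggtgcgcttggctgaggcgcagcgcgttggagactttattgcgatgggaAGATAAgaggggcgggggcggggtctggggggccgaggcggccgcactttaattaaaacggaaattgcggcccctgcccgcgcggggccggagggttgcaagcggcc
Slc6a4, chr11:76998347-76998596, plus strand: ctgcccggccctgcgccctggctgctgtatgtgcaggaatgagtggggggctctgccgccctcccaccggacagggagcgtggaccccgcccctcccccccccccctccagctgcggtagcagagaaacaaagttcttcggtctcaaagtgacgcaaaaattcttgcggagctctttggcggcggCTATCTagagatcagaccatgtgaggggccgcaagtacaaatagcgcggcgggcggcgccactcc
Slc18a2, chr19:59260628-59260877, plus strand: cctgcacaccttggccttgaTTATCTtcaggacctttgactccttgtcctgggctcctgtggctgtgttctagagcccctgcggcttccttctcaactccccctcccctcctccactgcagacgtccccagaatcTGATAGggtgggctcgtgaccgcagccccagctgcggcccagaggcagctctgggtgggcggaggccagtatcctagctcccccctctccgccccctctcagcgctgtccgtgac

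The match lies 128 bases before the start in Tph2, 118 in Fev and 65 in Slc6a4, and the matches of Slc18a2 lie 230 and 115 bases before it. The Fev window is shown without the 11 bases nearest the RefSeq start, which the GENCODE annotation places in the transcript. The Tph2 window had a GC content of 43.6%, below the median of 52.4% over all promoters, while those of Fev, Slc6a4 and Slc18a2 had 68.0%, 64.8% and 64.0% over the full 250 bases.

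The windows before the downstream and the upstream start of Ddc are shown because reads were assigned to forms from the downstream start; neither held a GATA or CCGGAA match.
Ddc downstream start, chr11:11890409-11890658, minus strand: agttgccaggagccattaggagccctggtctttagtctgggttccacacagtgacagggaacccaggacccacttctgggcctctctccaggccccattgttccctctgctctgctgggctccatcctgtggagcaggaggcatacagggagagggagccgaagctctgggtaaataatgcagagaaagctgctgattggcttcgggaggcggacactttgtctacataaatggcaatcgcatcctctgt
Ddc upstream start, chr11:11898145-11898394, minus strand: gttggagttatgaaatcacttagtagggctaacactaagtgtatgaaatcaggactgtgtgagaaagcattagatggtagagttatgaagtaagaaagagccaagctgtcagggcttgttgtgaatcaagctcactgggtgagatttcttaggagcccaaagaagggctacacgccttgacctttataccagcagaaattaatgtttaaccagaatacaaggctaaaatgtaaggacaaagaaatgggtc

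Between the libraries, 4 of the 9 genes were higher in replicate 2 and 0 were lower by an exact two-sided binomial test of rounded expected counts. Counts were set against each library's sum over genes, and p-values were adjusted by the Benjamini-Hochberg method over all 17664 genes tested, with a threshold of 0.05. Of all genes tested, 15.7% were called higher and 18.7% lower, so calls between these libraries were common. The test compares the libraries and asks only for a difference beyond counting noise, which may be technical. The median log2 ratio of scaled counts, replicate 2 over replicate 1, was 0.12 over the 9 genes and -0.03 over all genes tested. Of all calls, 45.7% were higher in replicate 2 with this scaling, 58.5% with TMM factors and 80.6% with the total of the spike-in RNAs.

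Tph2 had the largest difference, with 13.3 CPM (counts scaled to each library's sum over genes) in replicate 2 and 8.45 in replicate 1. That was a 1.57-fold difference (95% interval 1.35 to 1.83, from the exact binomial distribution and covering counting error only; adjusted p = 4.84e-08 by the exact binomial test). Slc6a4 had 12.5 CPM in replicate 2 and 9.72 in replicate 1, a 1.29-fold difference (1.11 to 1.49; adjusted p = 0.00336, exact binomial test). Ddc had 8.10 CPM in replicate 2 and 6.40 in replicate 1, a 1.27-fold difference (1.05 to 1.52; adjusted p = 0.0334, exact binomial test). Maob had 6.07 CPM in replicate 2 and 4.51 in replicate 1, a 1.35-fold difference (1.08 to 1.68; adjusted p = 0.0218, exact binomial test). The synthesis and reuptake genes and Maob thus stood higher in replicate 2, each by less than 2-fold. Among 13223 genes that averaged 100 counts or more, log2 ratios from percentile 5 to percentile 95 ran from -0.39 to 0.29, and those of Tph2 (0.65), Maob (0.43), Slc6a4 (0.36) and Ddc (0.34) lay above that range. The 95% counting intervals of Maob, Slc6a4 and Ddc reached into the range, with lower ends at 0.12, 0.15 and 0.07. That of Tph2 began at 0.43.

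The other 5 genes did not pass the test. The fold of replicate 2 over replicate 1 was 1.09 for Slc18a2 (0.999 to 1.18), 1.06 for Maoa (0.985 to 1.14), 1.00 for Gata3 (0.923 to 1.08), 0.934 for Gata2 (0.836 to 1.04) and 0.819 for Fev (0.613 to 1.09). Slc18a2 passed with TMM factors, DESeq2 size factors or the spike-in total, and Maoa with the spike-in total. The intervals of the GATA genes and of Fev end below the 1.57-fold of Tph2. That of Fev is wide toward lower values in replicate 2, reaching down to 0.613. By deposited credibility intervals of TPM, Tph2, Slc6a4, Slc18a2 and Maoa were apart and higher in replicate 2, and the intervals of Ddc and Maob overlapped. By that rule 16.1% of all genes tested were higher and 6.5% lower. Tph2 and Slc6a4 were thus higher in replicate 2 by both rules.

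**Figure D3:**
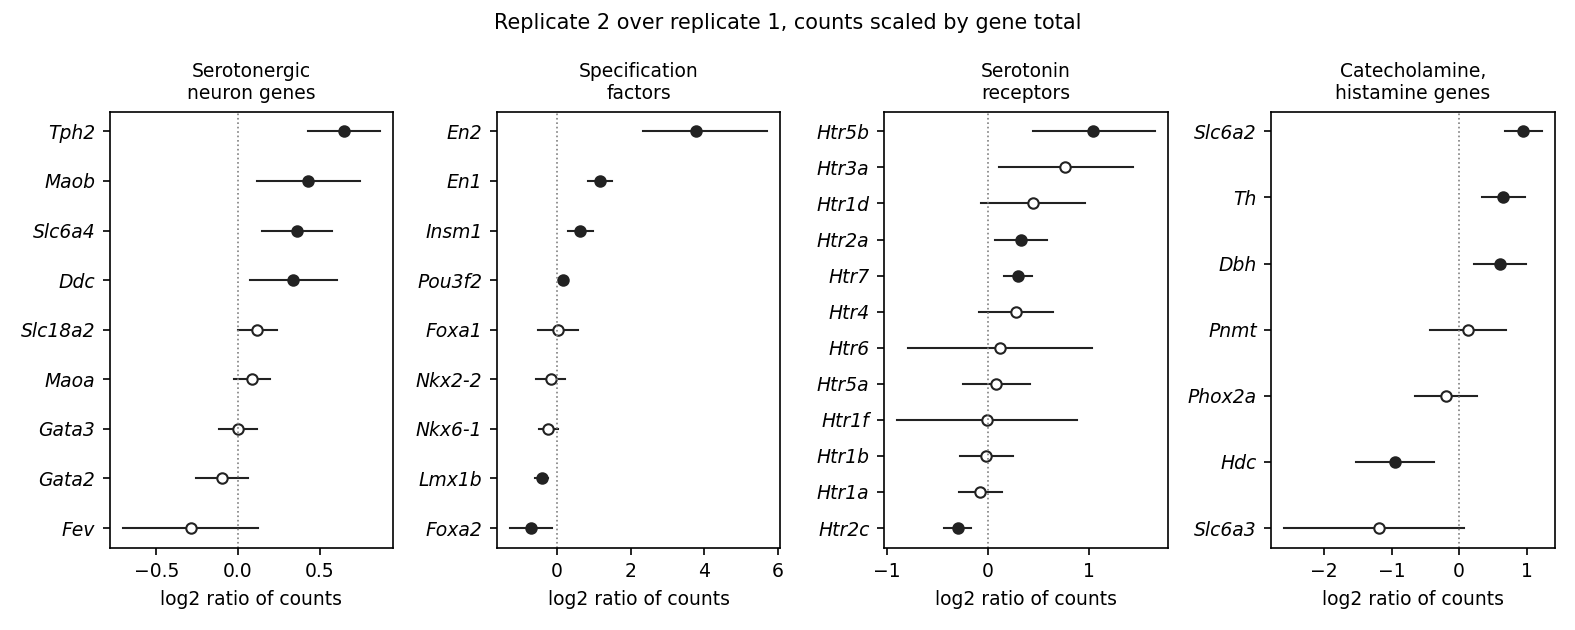
Log2 ratio of counts, replicate 2 over replicate 1, scaled by each library's sum over genes, on the horizontal axis, with its 95% counting interval, for the tested genes of 4 lists; each panel has its own scale. Filled points passed the exact binomial test and open points did not. Of the serotonergic genes Tph2 stands highest at 0.65 and Fev lowest at -0.29.

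Genes that specify serotonin neurons or act in their progenitors were present at low to moderate levels. Of 9 such factors, 7 reached 1 TPM in both libraries, against 34.8% of all genes. In which cells of the hindbrain these factors were expressed was not tested. Of the 9, 4 were called higher in replicate 2 and 2 lower, against 15.7% and 18.7% of all genes tested. Lmx1b, a LIM homeobox factor required in mice for serotonin neurons to form, had 5.37 TPM in replicate 2 and 6.87 TPM in replicate 1 and was called lower. Insm1, a zinc finger factor of newly formed neurons, had 3.33 TPM in replicate 2 and 2.04 TPM in replicate 1 and was called higher. Nkx6-1, a factor of ventral progenitors, had 5.50 TPM in replicate 2 and 6.17 TPM in replicate 1 and was not called. Pou3f2 was the most abundant of the list, at 16.6 TPM in replicate 2 and 14.1 TPM in replicate 1, also called higher. Nkx2-2, which also marks ventral progenitors, had 4.03 TPM in replicate 2 and 4.05 TPM in replicate 1 and was not called. Foxa2, a floor plate factor, was called lower on counts, 42 in replicate 2 and 71 in replicate 1, while its TPM was 1.74 in replicate 2 and 1.69 in replicate 1. The engrailed genes, expressed at the border of midbrain and hindbrain and in rostral serotonin neurons of mice, differed most of the list, with En1 at 5.05 TPM in replicate 2 and 2.13 TPM in replicate 1 and En2 at 0.79 TPM in replicate 2 and 0.05 in replicate 1, both called higher.

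Some genes of other monoamine neurons and of the brain's axis also differed between the libraries. Of all genes tested, 15.7% were called higher in replicate 2 and 18.7% lower. Of 7 genes of catecholamine and histamine neurons, 3 were called higher in replicate 2 and 1, Hdc, lower, while Pnmt, Phox2a and Slc6a3 were not called. Th, the tyrosine hydroxylase gene of catecholamine neurons, had 6.12 TPM in replicate 2 and 3.70 TPM in replicate 1, Dbh had 2.96 TPM in replicate 2 and 1.85 in replicate 1, and Slc6a2, the noradrenaline transporter gene, had 2.76 TPM in replicate 2 and 1.35 in replicate 1; all were called higher. The ratio of Tph2 to Th was 1.42 in replicate 2 and 1.43 in replicate 1. Slc6a3, the dopamine transporter gene, had 0.12 TPM in replicate 2 and 0.26 TPM in replicate 1 and was not called. Of the 8 hindbrain genes 5 were called lower in replicate 2, against 18.7% of all genes tested, and 0 higher. The fold of counts, replicate 2 over replicate 1, was 0.764 for Hoxa2, 0.859 for Hoxb5, 0.900 for Hoxb2, 0.939 for Meis1 and 0.947 for Hoxa5. On the log2 scale the differences of Meis1 (-0.09) and Hoxa5 (-0.08) were smaller than the 0.12 by which scaling to the spike-in total moved the median of all genes. Of the erythroid and mast cell genes, Alas2 and Kit were called higher and Epor lower. Of the 3 tested forebrain genes 2 were called higher, Lhx2, at 15.1 TPM in replicate 2 and 10.4 TPM in replicate 1, and Six3, at 0.42 TPM in replicate 2 and 0.02 in replicate 1, and Dlx2 was not called. The part of the cells that express these genes in the differences of Tph2, Slc6a4, Ddc and Maob was not tested.

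The cofactor of tryptophan hydroxylase, tetrahydrobiopterin, is made, recycled or regulated by the 6 genes of the list, all but Gch1 more abundant than Tph2. All of them reached 1 TPM in both libraries, against 34.8% of all genes. The test called 0 of them higher and 1 lower, against 15.7% and 18.7% of all genes tested. Gch1, the first enzyme of its synthesis, had 5.20 TPM in replicate 2 and 4.11 TPM in replicate 1, below Tph2 in each library. Pcbd1, whose product takes part in recycling, had 36.9 TPM in replicate 2 and 37.4 TPM in replicate 1. Qdpr, which recycles the cofactor, had 80.8 TPM in replicate 2 and 70.7 TPM in replicate 1. Pts, the synthesis enzyme after Gch1, had 54.8 TPM in replicate 2 and 63.2 TPM in replicate 1 and was the gene called lower. These enzymes serve other cells too, and their levels say nothing of serotonin neurons alone.

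Where 34.8% of all genes reached 1 TPM in both libraries, 2 of 9 genes of other monoamine uptake, breakdown and melatonin synthesis did. They were Slc29a4, a low-affinity monoamine transporter, at 66.9 TPM in replicate 2 and 63.9 in replicate 1, and Aldh2, an aldehyde dehydrogenase, at 33.2 TPM in replicate 2 and 29.1 in replicate 1. Slc29a4 was thus several times higher than Slc6a4 in each library. Of 5 tested, 1 was called higher in replicate 2 and 1 lower, against 15.7% and 18.7% of all genes tested. Slc22a2 was called lower, at 0.63 TPM in replicate 2 and 1.25 TPM in replicate 1. Slc22a3 was called higher, at 1.07 TPM in replicate 2 and 0.65 TPM in replicate 1. Both encode organic cation transporters. The melatonin synthesis gene Asmt had 0 counts in both libraries, where 3 counts would be a level of 0.0924 CPM in replicate 2 and 0.0889 in replicate 1, and Aanat had 1 count in replicate 2 and 3 in replicate 1.

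Serotonin receptors were led by Htr7 and Htr2c. Of 14 receptor genes, 8 reached 1 TPM in both libraries, against 34.8% of all genes. Of 12 tested, 3 were called higher in replicate 2 and 1 lower, against 15.7% and 18.7% of all genes tested. Htr7, a receptor that raises cyclic AMP, had 16.8 TPM in replicate 2 and 12.9 TPM in replicate 1 and was called higher. Htr2c, which is abundant in the choroid plexus, had 12.0 TPM in replicate 2 and 15.2 TPM in replicate 1 and was the receptor called lower. Htr2a had 5.01 TPM in replicate 2 and 3.79 TPM in replicate 1 and was called higher. Htr1a, the autoreceptor on the cell bodies of serotonin neurons, had 4.14 TPM in both libraries. Htr5b, which is expressed in raphe neurons of mice, had 2.03 TPM in replicate 2 and 0.94 TPM in replicate 1 and was called higher.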

How the data were processed

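Total RNA of 2 hindbrain libraries, 1 group, was analysed from gene and transcript tables. Per the description file deposited with each library, the authors used mm10 and annotation M4; replicates were not pooled. Sources used here name no aligner, quantifier or strand setting, so reads of overlapping antisense genes may not be separated. Genes on the opposite strand overlapping the 9 genes had at most 6.04 expected counts. The deposited expected counts are estimated reads, not normalised by the authors. The authors' TPM and FPKM values take length and depth into account, and the TPM of a file includes spike-in RNAs, which held 7.72% of TPM in replicate 2 and 8.15% in replicate 1. The deposited bounds of the credibility interval, used as score values, carry no stated level and surround the posterior mean, so a TPM can lie outside them.

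Without the version suffix, identifiers gave a symbol for 42462 of 43346 genes. Coordinates and transcript types came from GENCODE M21 on GRCm38, the assembly of mm10, and promoters from RefSeq. The stretch of 100 bases is the transcript length minus the deposited effective length, plus 1. Expected counts were rounded, genes with a mean of at least 10 counts were tested by the exact two-sided binomial test, and p-values were adjusted over all genes. With 2 samples in 1 group, no model across replicates could be fitted. The test was checked on simulated counts that held only counting noise and set fold differences in some genes. That check does not cover other differences between libraries. The labels describe no molecular identifiers, so intervals and floors cover counting error only. The 9 genes, the other gene lists and the tests were chosen with earlier results of these data known. The text names the 9 genes, the most abundant and the called genes of each list and a fixed set of related genes. Some genes of these lists are not reported here and were left out of the lists. Alternatives were FPKM, posterior means, other pseudocounts, filters and scalings (TMM of edgeR 4.0.16, DESeq2 1.42.0 size factors, spike-in total). The binomial test came from scipy 1.17.1 under Python 3.11.15, tables from pandas 2.3.3 and numpy 2.4.6, figures from matplotlib 3.10.9, and scaling factors from R 4.3.3.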

Additional observations from a re-analysis of the deposited data

How the results depend on the processing

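All 9 genes reached the detection level with a limit of 0.5 TPM, 1 FPKM, the posterior mean, TPM rescaled without spike-in, mitochondrial and ribosomal RNA, and each replicate alone; with a limit of 5 TPM, 7 did. The count of 4 genes called became 5 with TMM factors or DESeq2 size factors, which add Slc18a2. It became 6 with the spike-in total, which adds Slc18a2 and Maoa, and filters on counts left it at 4. Of all 17664 genes tested, 2779 were called higher and 3300 lower with the gene total. These counts were 3669 and 2599 with TMM factors, 3452 and 2753 with DESeq2 size factors, and 6216 and 1495 with the spike-in total. The spike-in total moved the median log2 ratio of all genes by 0.12. With a minimum of 2-fold, 552 genes and 0 of the 9 were called, against 6079 genes without it. By credibility intervals 4 were apart, a rule added after the data were seen. The log2 ratio of Gata2, -0.03 by TPM with a pseudocount of 1, was 0.0256 with the spike-in total, and that of Gata3, 0.08 by TPM, was -0.000429 by counts scaled to the gene total, an alternative also added later; neither gene was called. The share of the main Ddc transcript averaged 96.1% by TPM and 56.5% by posterior mean; the cause was not tested. Depth limits Fev, with 89 counts in replicate 2 and 113 in replicate 1, most.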

Other observations

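Among other genes of monoamine neurons, Pnmt and Phox2a reached 1 TPM in both libraries and Hdc did not. Hdc, the histidine decarboxylase gene, had 0.89 TPM in replicate 2 and 1.98 TPM in replicate 1 and was called lower in replicate 2 by the exact binomial test (adjusted p = 0.00332). Pnmt, which makes adrenaline from noradrenaline, had 2.76 TPM in replicate 2 and 2.39 TPM in replicate 1 and was not called. Phox2a, a factor of noradrenergic and visceral neurons, had 2.54 TPM in replicate 2 and 2.76 in replicate 1 and was not called. Of the 7 genes of catecholamine and histamine neurons, 3 were thus called higher and 1 lower, against 15.7% and 18.7% of all genes tested. V2 interneuron genes had 1 called higher of 6 tested, Tal1, and 0 lower, and endothelial and pericyte genes 0 higher and 2 lower of 8.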
